A study of Mus musculus with 6 samples.

Results

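The suppressor of cytokine signalling (SOCS) family comprises Cish and Socs1 to Socs7, and all 8 genes were found by symbol among the 19386 genes of the authors' deposited expression table. The family was chosen by 3 measured values of each gene in that table, the mean normalized counts after room air, after cigarette smoke and over the authors' 24 libraries, so its levels and fold changes are described here without a test of their own. RNA had been sequenced from bone marrow-derived macrophages of wild-type C57BL/6 mice, 3 libraries after exposure of the mice to cigarette smoke and 3 after room air. The exposure took place in the animal, and both groups were cultured alike in L929-conditioned medium, a source of the macrophage growth factor CSF1, until harvest on day 11. The ages of the mice and the length of the exposure are not given in the sources used here, and the labels do not state that each library came from a separate mouse, so the spread between libraries may be partly technical. The other 18 libraries of the authors' fit were not analysed singly here, and their conditions are not given in the sources used here.

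SOCS proteins are feedback inhibitors of cytokine receptors that signal through Janus kinases (JAKs) and the transcription factors they activate (STATs). Each has an SH2 domain, which binds phosphorylated tyrosines, and a SOCS box, which recruits elongins and cullin 5 so that bound proteins are marked for degradation. CIS (the product of Cish), SOCS1, SOCS2 and SOCS3 are typically induced by the cytokines they restrain. In macrophages SOCS1 is best known for limiting interferon signalling and SOCS3 for limiting signalling by IL-6 through its receptor chain gp130. SOCS4 to SOCS7 have longer N-terminal regions and are better known as regulators of receptor tyrosine kinases.

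Because several members are STAT targets, their promoters were read for the general forms of STAT binding elements, TTCNNNGAA and TTC with GAA after 4 free bases, both of which read the same on either strand. RefSeq promoter windows (GRCm38.p6, 250 bases before to 50 after the gene start) were matched for 4 of the 8 members, Cish, Socs1, Socs3 and Socs4. The gene start here is that of RefSeq, which for Cish (107296659) and Socs3 (117969366) lies inside the longer gene span that GENCODE gives and that is printed with each gene below. Of 32851 such windows, 8.30% held TTCNNNGAA, 0.457% held it at least 2 times, and 6.95% held the form with 4 free bases. The Cish window held TTCNNNGAA 2 times, the Socs3 window held it 1 time, and none of the 4 windows held the form with 4 free bases. Another form, GAAA repeated after 2 free bases, is the core of interferon-stimulated response elements and was added after the sequences had been seen; searched on both strands, it occurred in 3.44% of windows. The Socs1 window held it 2 times, at positions -83 to -74 and -77 to -68 from the gene start, so that the matches overlap by 4 bases. The Cish stretch with both matches (positions 1 to 9 and 12 to 20) and the 250 bases before the RefSeq starts of Socs1 and Socs3 are shown because these members differed between the groups, with the matches in capitals. A match is a string of letters, and binding was not measured.
Cish, chr9:107296654-107296683, plus strand: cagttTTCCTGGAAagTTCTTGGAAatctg
Socs1, chr16:10785537-10785786, minus strand: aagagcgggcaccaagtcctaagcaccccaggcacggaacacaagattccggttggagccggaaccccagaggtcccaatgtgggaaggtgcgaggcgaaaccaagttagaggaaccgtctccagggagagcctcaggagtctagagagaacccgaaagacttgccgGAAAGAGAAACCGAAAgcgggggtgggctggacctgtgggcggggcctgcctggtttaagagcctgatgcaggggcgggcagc
Socs3, chr11:117969367-117969616, minus strand: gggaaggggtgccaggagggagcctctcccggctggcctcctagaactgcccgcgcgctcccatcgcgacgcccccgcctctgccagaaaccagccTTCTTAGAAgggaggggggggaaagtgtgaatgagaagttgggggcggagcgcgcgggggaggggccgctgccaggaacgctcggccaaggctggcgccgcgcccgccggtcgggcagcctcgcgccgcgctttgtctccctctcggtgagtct

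Of the 8 members, 4 were called higher after smoke and 0 lower in the authors' deposited table, where a call is a DESeq2 adjusted p under 0.05. Cish, Socs1, Socs2 and Socs3 were the called members, and Socs4, Socs5, Socs6 and Socs7 were not called. Over all 12082 genes with an adjusted p in the same deposited table, 929 were called (7.69%), of which 502 were higher (4.15%) and 427 lower (3.53%). At an adjusted p under 0.01 the members called higher were 2, against 1.6% of all genes, and they were again 2, against 0.828%, once the trend of fold change in GC content and length was removed (Cish and Socs2). The removal left Socs3 at a log2 fold change of 1.79 (adjusted p = 0.0692) and Socs1 at 1.42 (adjusted p = 0.232). Since the contrast was among the values that chose the family, nothing is read from the difference between these shares.

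The table gives no values per library, but the deposited group means carried enough digits to recover the reads behind low ones. A mean of 3 normalized counts is a sum of whole reads, each worth a fixed amount set by its library's depth. All 6303 room air means and all 5910 smoke means above 0 and under 5 were matched by 1 combination of whole reads each, and 0% were matched after a shift of 20 rounding units. Reads were recovered for 10868 of the 10874 genes with both means under 70. Fold changes were recomputed for 2228 of the genes recovered from the means alone. Genes with very low means or a library without reads were left out of this check. Of those checked, 100% came within 0.0001 of the deposited log2 value.

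The recovered libraries can be told apart by depth, but no label or column name ties them to the replicate numbers, so they are named here as the deepest, the second deepest and the third deepest of their group. In room air their size factors, the relative depths used to normalize, were 2.73, 2.58 and 1.67. After smoke they were 3.42, 1.06 and 0.662, so the shallower smoke libraries had 31.1% and 19.4% of the depth of the deepest. A read therefore weighs more in those libraries. Intervals below are exact 95% Poisson intervals for single libraries and exact 95% binomial intervals on summed reads for pooled ratios. Both kinds cover counting error only and leave out the spread between libraries. In the JuncBASE table, which names the replicates, the smoke libraries numbered 1, 2 and 3 lacked a value for 4169, 189 and 50 events, and those of room air for 398, 7 and 1. Smoke replicate 3 thus had the fewest gaps of its group, but no library was assigned to a replicate from these values.

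Cish (chr9:107296026-107302784, plus strand, GRCm38), whose product competes for STAT5 docking sites on receptors, had the largest deposited fold change of the family. Its room air libraries held 8, 2 and 6 reads, or 2.93, 0.774 and 3.60 normalized counts from deepest to the third deepest. After smoke the deepest library held 371 reads, or 108.6 normalized counts (interval 97.8 to 120.2). The second deepest held 4 reads (3.76 normalized counts, interval 1.02 to 9.63) and the third deepest 3 reads (4.53, interval 0.934 to 13.2). All 3 smoke libraries lay above all 3 room air libraries, but the shallower smoke libraries were within counting error of room air, and the deepest held 92.9% of the group's summed normalized count. The authors' deposited table gives means of 2.44 and 39.0 and a log2 fold change of 4.06 (SE 0.96, DESeq2 adjusted p = 0.00196). Without the deepest smoke library the log2 fold change, refitted with the same dispersion, was 0.78 (SE 1.18). Pooled over the shallower smoke libraries, 7 reads against 16 in room air gave a depth-adjusted ratio of 1.77 (exact 95% interval 0.615 to 4.54). Cish overlaps 2 antisense genes, Gm17040 and Gm17041, neither of which is listed in the table.

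Socs2 (chr10:95385362-95417180, minus strand), known as a brake on growth hormone signalling, showed the same division between libraries. In room air it had 6, 2 and 4 reads, or 2.20, 0.774 and 2.40 normalized counts. After smoke it had 188 reads in the deepest library (55.0 normalized counts, interval 47.4 to 63.5) and 1 read in each of the shallower libraries (0.940 and 1.51 normalized counts). The groups overlapped, and the deepest smoke library held 95.7% of the smoke group's summed count. The authors' deposited table gives means of 1.79 and 19.2 and a log2 fold change of 3.50 (SE 1.02, DESeq2 adjusted p = 0.0151). Without that library the direction turned, with a log2 fold change of -0.58 (SE 1.50). The pooled ratio was 0.674 (exact 95% interval 0.0732 to 3.03) from 2 reads against 12.

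Socs1 (chr16:10782240-10785536, minus strand), an inhibitor of JAK kinase activity, differed by less but was higher in every smoke library. Room air libraries held 9, 6 and 5 reads, or 3.30, 2.32 and 3.00 normalized counts. Smoke libraries held 21, 12 and 8 reads, or 6.15, 11.3 and 12.1 normalized counts (intervals 3.80 to 9.39, 5.83 to 19.7 and 5.21 to 23.8). The deepest smoke library was here the lowest of its group, and the groups did not overlap, but each smoke interval overlapped that of at least 1 room air library, the highest of which reached 7.00. The authors' deposited table gives means of 2.88 and 9.84 and a log2 fold change of 1.67 (SE 0.57, DESeq2 adjusted p = 0.0457). Without the deepest smoke library the log2 fold change was 2.02 (SE 0.64), and the pooled ratio was 4.04 (exact 95% interval 2.06 to 7.91) from 20 reads against 20. That interval leaves out the spread between libraries. The call lay close to the threshold. The smallest absolute Wald score of any called gene in the authors' deposited table was 2.89, and leaving out any library other than the deepest smoke library brought the Socs1 score down to between 2.38 and 2.69.

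Socs3 (chr11:117966079-117970047, minus strand), which binds gp130 and blocks JAKs, was the most abundant of the called members. In room air it had 43, 31 and 34 reads, or 15.8, 12.0 and 20.4 normalized counts. After smoke it had 370, 37 and 36 reads, or 108.3, 34.8 and 54.4 normalized counts, the 1 of 3 combinations fitting the smoke mean that also matched the deposited fold change. All 3 smoke libraries were above the highest room air library, and the deepest was the highest by a wide margin. The authors' deposited table gives means of 16.1 and 65.8 and a log2 fold change of 2.06 (SE 0.55, DESeq2 adjusted p = 0.00734). Without the deepest smoke library the log2 fold change was 1.47 (SE 0.63) with a Wald score of 2.35, short of the score of called genes. The pooled ratio of the shallower smoke libraries was 2.73 (exact 95% interval 2.00 to 3.71) from 73 reads against 108. Unlike the Wald score, this interval treats reads as the units and leaves out the spread between libraries.

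**Figure D1:**
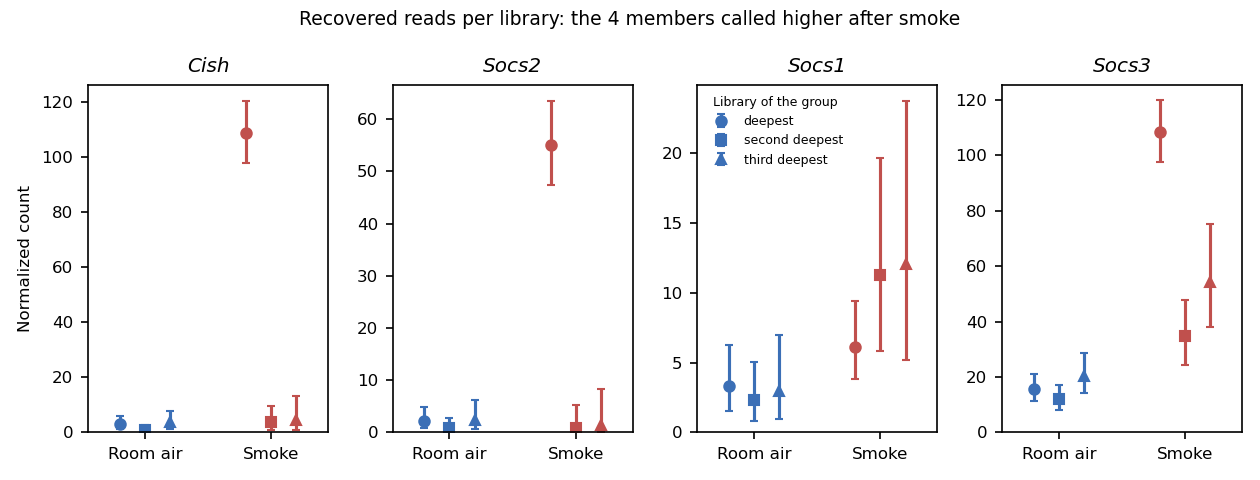
Normalized count (vertical axis, linear from 0, a scale of its own in each panel) of Cish, Socs2, Socs1 and Socs3 in the 3 room air (blue) and 3 cigarette smoke (red) libraries. Symbols name the library by depth within its group, and bars are exact 95% Poisson intervals. Cish and Socs2 are high in the deepest smoke library alone. Socs1, Socs3 and Cish lie above room air in all 3 smoke libraries, Cish within counting error in the shallower ones.

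Counted over genes, a smoke group wholly above room air was found for 629 of the 10868 genes with recovered reads (5.79%), and for 437 of 4054 (10.8%) where the mean of the groups was at least 5. Among the 7 members with per-library values, Cish, Socs1 and Socs3 were wholly above. This is not set against the shares of all genes. Cish and Socs1 reach a mean of 5 only through the smoke group, and Socs4, Socs5 and Socs7 have means above those of the genes counted. A smoke group wholly below room air was found for 1309 of the 10868 (12%), and among the members for Socs5, by less than counting error and from a mean above the range of those genes. Among 3063 genes with a smoke mean from 10 to 70, the deepest smoke library held a median of 32.6% of the summed normalized count. It held over 90% in 20 of them (0.653%), Cish and Socs2 among these, whereas neither shallower smoke library held over 90% of any of the 3063. Cish and Socs2 entered this range of smoke means only through the deepest library, without which their smoke means were 4.14 and 1.22, so the shares describe them and support nothing further.

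**Figure D2:**
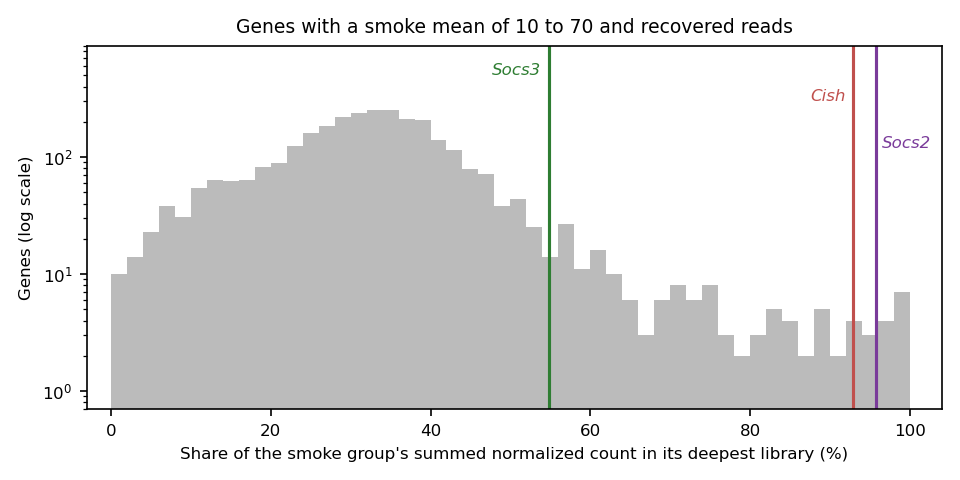
Number of genes (vertical axis, log scale) by the percent of the smoke group's summed normalized count that lay in its deepest library (horizontal axis), for 3063 genes with a smoke mean of 10 to 70. Vertical lines mark Socs3, Cish at 92.9% and Socs2 at 95.7%, far above the median of 32.6%.

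The members that were not called had higher counts and smaller differences. Socs4 (chr14:47276931-47296102, plus strand), linked to epidermal growth factor receptor turnover, had 293.1, 270.2 and 261.1 normalized counts in room air and 264.9, 191.8 and 187.2 after smoke. The deepest smoke library fell within the room air range and the shallower ones below it. The authors' deposited table gives a log2 fold change of -0.33 (SE 0.15, DESeq2 adjusted p = 0.159). Without the deepest smoke library it was -0.54 (SE 0.18) with a Wald score of -3.04, past the score of called genes. With the GC and length trend removed over all 6 libraries, the direction turned, to 0.051 (adjusted p = 0.967).

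Socs5 (chr17:87107679-87137839, plus strand), known for restraint of IL-4 and epidermal growth factor receptors, had 263.4, 252.4 and 258.1 normalized counts in room air. After smoke it had 200.8, 228.4 and 252.1, so the highest smoke library and the lowest of room air differed by less than counting error. The values of Socs4 and Socs5 are each 1 of several solutions (3 and 4) that fitted the deposited means and fold change, taken because their libraries lay within 1.41-fold and 1.26-fold of each other, where the next solution needed 12.9-fold and 7.49-fold. The authors' deposited table gives Socs5 a log2 fold change of -0.20 (SE 0.17, DESeq2 adjusted p = 0.550).

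Socs7 (chr11:97362551-97398542, plus strand), an adaptor-binding member, had a single solution, 177.9, 168.0 and 153.1 normalized counts in room air and 149.8, 136.3 and 170.6 after smoke. The groups overlapped, and the authors' deposited table gives a log2 fold change of -0.15 (SE 0.14, DESeq2 adjusted p = 0.578). Socs6 (chromosome 18, minus strand), linked to KIT and insulin receptor signalling, had 151 solutions and no library values were taken. Its group means were 433.3 and 510.9, with a log2 fold change of 0.25 (SE 0.36, DESeq2 adjusted p = 0.749) in the authors' deposited table. Its SE was more than that of Socs4, Socs5 and Socs7 (0.14 to 0.17). The span of Socs6 overlaps the genes AC122398.2 and AC122398.3 on the same strand and AC118614.1 on the other strand.

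**Figure D3:**
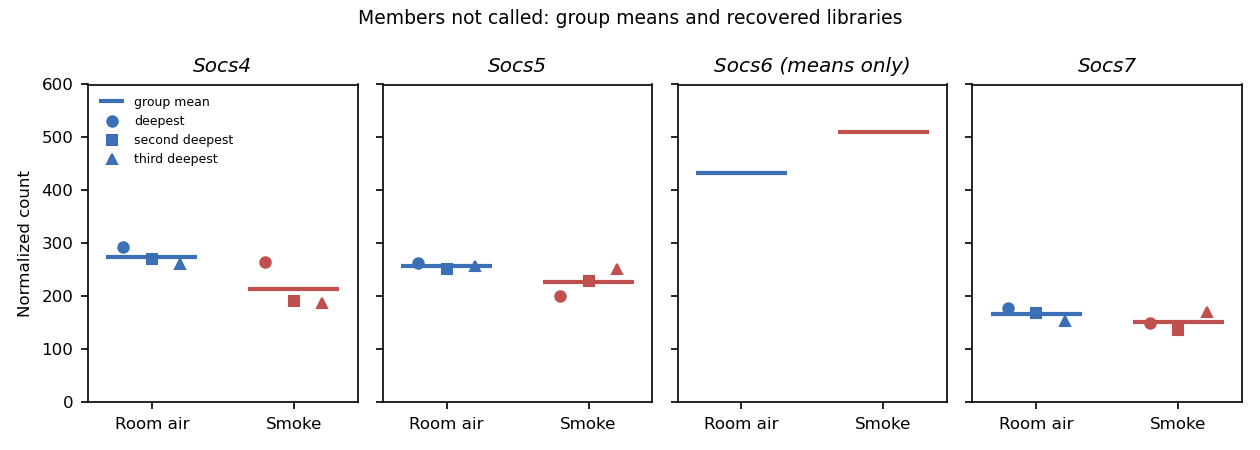
Normalized count (vertical axis, linear from 0) of Socs4, Socs5, Socs6 and Socs7 in room air (blue) and after cigarette smoke (red), with horizontal lines at the authors' group means and symbols for the recovered libraries by depth. Socs6 has group means of 433.3 and 510.9 only; Socs7 had a single solution, with its groups overlapping, while the libraries of Socs4 and Socs5 were taken as the solution in which they lay closest together.

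**Figure D4:**
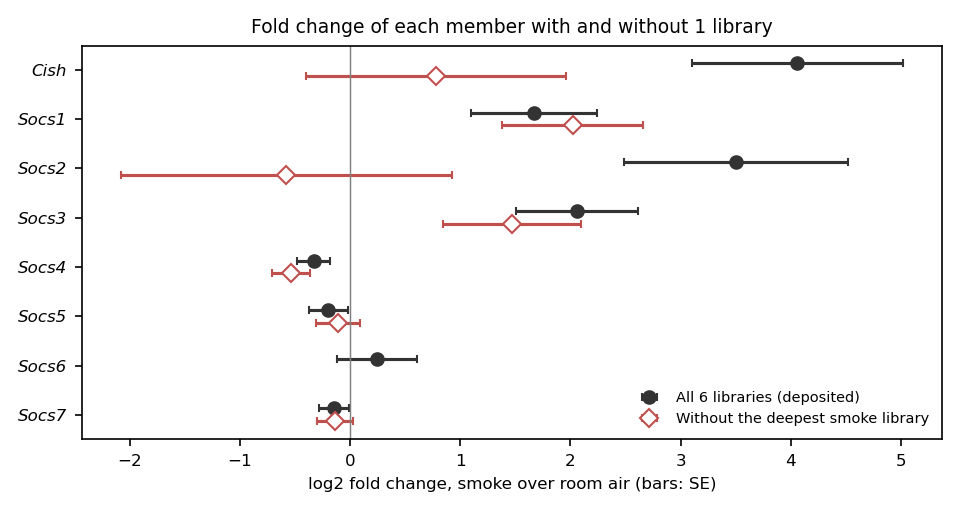
Log2 fold change of smoke over room air (horizontal axis, bars are SE) for the 8 members, as deposited (filled) and refitted without the deepest smoke library (open; not available for Socs6). Leaving that library out takes Cish from 4.06 to 0.78 and Socs2 from 3.50 to -0.58, and leaves Socs1 at 2.02 and Socs3 at 1.47.

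Levels of different members were compared as normalized counts per kilobase of the longest annotated transcript. In room air the order of the means was Socs6 (71.8 per kilobase), Socs5 (55.5), Socs4 (40.0), Socs7 (23.7), Socs3 (6.29), Socs1 (0.989), Cish (0.519) and Socs2 (0.422). Cish and Socs2 overlapped between libraries, the other neighbours with library values did not, and Socs6 could not be placed by its spread. The 4 genes of the receptor tyrosine kinase branch thus lay above all of the classical cytokine-induced members in these cells after room air. After smoke the means ran Socs6 (84.6), Socs5 (48.9), Socs4 (31.2), Socs3 (25.8), Socs7 (21.7), Cish (8.29), Socs2 (4.52) and Socs1 (3.38). From Socs4 downward every neighbouring pair overlapped between libraries. Per kilobase of the union of exons, 5 of the 8 ranks in room air and 6 after smoke were kept. In room air Socs5 (40.2), Socs4 (40.0) and Socs6 (38.2) then lay close together at the top, and after smoke Socs2 (2.01) fell below Socs1.

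The other 18 libraries of the authors' fit had far higher levels of some members. Worked out from the 3 deposited means, their mean Socs3 level was 5841 normalized counts, 143 times the mean of the room air and smoke groups. Over 9026 genes with a 24-library mean of at least 50 the median ratio was 1.16 (quartiles 0.792 and 1.71), and since this mean was among the values that chose the family, the members' place among these genes is not read as a result. The ratio was 58.7 for Socs1 (373.1 normalized counts), 11.5 for Cish (237.2) and 4.34 for Socs7 (690.6). It was 0.998 for Socs2, 0.976 for Socs4, 0.720 for Socs5 and 0.346 for Socs6. Per kilobase, Socs3 led the other 18 libraries at 2289, followed by Socs1 at 128.3, with Socs2 last at 2.46. Thus Socs2 was the called member whose smoke mean (19.2) exceeded its mean in those libraries (10.5), though without the deepest smoke library its smoke mean was 1.22, and Socs3, Socs1 and Cish remained below theirs after smoke.

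**Figure D5:**
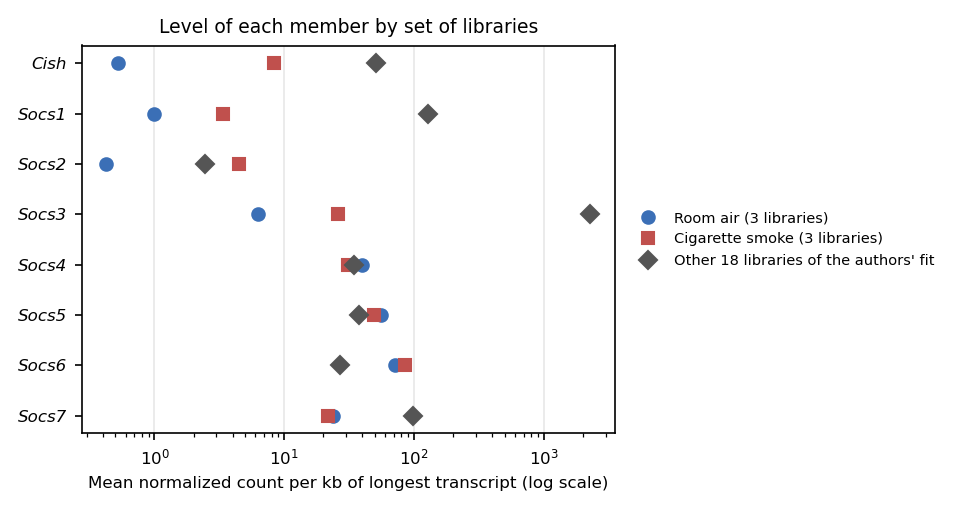
Mean normalized count per kilobase of the longest transcript (horizontal axis, log scale) of each member in room air, after cigarette smoke and in the other 18 libraries of the authors' fit. Socs3 ranges from 6.29 in room air to 2289 in the other libraries, while Socs4 and Socs5 stay between 31.2 and 55.5.

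Genes nearest to each member in 2 ratios, smoke over room air and the other 18 libraries over these 6, were sought among 9025 genes, for the 5 members with both group means of at least 10. Near to Socs3 was Edn1, the endothelin gene. The nearest to Socs4 were Tanc2 and Nop14, for Socs5 Rev1 and Osbpl11, for Socs6 E2f6 and Slc35c2, and for Socs7 RP23-413G8.2 and Samhd1. The likeness rests on 3 means that all genes share and carries no test.

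Ligands upstream of the family had the highest median log2 fold change of the pathway lists, 1.59 over the 13 tested, against -0.003 over all genes tested. Of the 13, 1 was called higher and 0 lower, where 4.15% of all genes were called higher and 3.53% lower. That gene was Csf2 (granulocyte-macrophage colony-stimulating factor), with 0, 1 and 0 reads in room air and 101, 0 and 0 after smoke, all in the deepest library. The authors' deposited table gives Csf2 a log2 fold change of 6.01 (SE 2.00, DESeq2 adjusted p = 0.0404), a value that depends on how near-zero counts are fitted and that lost its call with the GC and length trend removed, at 5.89 (adjusted p = 0.119). The ligands named next were chosen after their values were seen. Csf3 had 40, 0 and 0 reads after smoke and 0 in all room air libraries, Lif had 78, 3 and 1 against 2, 8 and 1, and Osm had 90.7, 31.0 and 27.2 normalized counts against 22.7, 26.7 and 28.2. These were high in the same smoke library as Cish and Socs2.

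The order was the other way for Il6, which had 3.22, 14.1 and 42.3 normalized counts from deepest to the third deepest smoke library and 1.10, 4.26 and 4.80 in room air. Il12b had 7, 13 and 27 reads after smoke against 8, 7 and 15, and Il27 had 7.02, 9.40 and 40.8 normalized counts against 6.60, 5.81 and 5.40. The ligands named here, which except for Csf2 were chosen after their values were seen, thus divided between libraries. The third deepest smoke library was highest in Il6, Il12b, Il27 and Socs1. The deepest was highest in Csf2, Csf3, Lif, Osm, Cish, Socs2 and Socs3. The division is not stated for the other listed ligands. For Socs1 the third deepest (8 reads) and the second deepest (12 reads) were within counting error of each other. None of Il6, Lif, Osm, Il12b and Il27 was called (DESeq2 adjusted p from 0.0825 to 0.211 in the authors' deposited table), and Csf3 had no adjusted p. With 3 libraries a group, whether these genes vary together was not tested.

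Downstream of the receptors, 0 of 11 JAKs and STATs were called in either direction (median log2 fold change -0.03), and 0 of 26 cytokine receptors (median -0.11), where 4.15% of all genes were called higher and 3.53% lower. Of 23 tested STAT target genes 4 were called higher and 0 lower, with a median of 0.64. Nos2 (inducible nitric oxide synthase) had 11.4, 10.1 and 25.8 normalized counts in room air and 164.8, 37.6 and 117.8 after smoke, higher in all 3. Its log2 fold change was 2.78 (SE 0.73) in the authors' deposited table and 2.31 (SE 0.81) without the deepest smoke library, where its Wald score of 2.83 was just short of that of called genes. Junb, an AP-1 subunit, differed by 0.64 on the log2 scale (SE 0.21) and Il1rn, the IL-1 receptor antagonist gene, by 1.19 (SE 0.40) per the authors' deposited table. With the GC and length trend removed Nos2 stayed called (adjusted p = 0.0237), while Junb, at 0.23 (adjusted p = 0.780), and Il1rn, at 1.28 (adjusted p = 0.0719), did not.

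Calls among other inhibitors and partners are given beside the 4.15% of all genes called higher and the 3.53% called lower. Of 6 SOCS-box ligase partners 0 were called in either direction, and of 13 other SOCS-box proteins Wsb2 alone was called, from 428.8 to 592.2 (log2 fold change 0.48, SE 0.13, in the authors' deposited table). Of 12 other JAK-STAT inhibitors 1 was called, Ptprc (CD45, a phosphatase that acts on JAKs), which was lower with a log2 fold change of -0.55 (SE 0.13) in the authors' deposited table. Of 24 feedback inhibitors outside the SOCS family 2 were called higher and 0 lower, against the 4.15% and 3.53% of all genes. Ier3, an early response gene, had 17.6, 23.6 and 28.2 normalized counts in room air and 306.7, 35.7 and 28.7 after smoke, and its log2 fold change of 2.44 in the authors' deposited table was 0.48 (SE 0.72) without the deepest smoke library. Nfkbia, the NF-kappaB inhibitor gene, had a log2 fold change of 0.56 (SE 0.15) in the authors' deposited table and of 0.39 without the deepest smoke library, with a Wald score of 2.19, short of that of called genes. The Nfkbia reads behind that value were 1 of 11 solutions, taken because their libraries lay within 1.40-fold of each other, where the next needed 4.12-fold. With the GC and length trend removed none of these calls held, with Ptprc at -0.23 (adjusted p = 0.535), Nfkbia at 0.33 (0.368), Wsb2 at 0.43 (0.0638) and Ier3 at 2.14 (0.0509).

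All 10 macrophage markers were listed and 0 were called, where 7.69% of all genes were called in either direction. Their summed means were 53685 in room air and 55717 after smoke. Summed neutrophil, lymphoid, dendritic and erythroid markers reached at most 2.40 normalized counts in any library, over the few of these markers that the table lists (4 of 10, 2 of 7, 3 of 6 and 1 of 5). The 6 stromal markers summed to 127.7, 7.35 and 1.80 in room air and 19.0, 3.76 and 1.51 after smoke. They were highest in the deepest library of each group and higher in that of room air. Whether these sums relate to the levels of the members was not tested. In bulk RNA a change in the share of cells of a type and a change of RNA per cell cannot be told apart.

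Splicing gave little on the family. Of 10376 JuncBASE events tested with limma 0 lay in a member, and 0 of all events were called at an adjusted p under 0.05 (0%), with 1125 at an unadjusted p under 0.05. The count over all events was 23 with only events seen in all 6 libraries and 1064 without cigarette smoke replicate 3. The authors' deposited rMATS table, in which 565 of 3887 retained introns were called (14.5%), held 1 intron in a member. It was the 509-base intron of Socs1 (chr16:10784922-10785430, minus strand), for which the authors' deposited table gives a difference of -2.3 percentage points between sets it does not name, and a false discovery rate of 1.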

How the data were processed

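The members and pathway lists were chosen with earlier results of these data known. Groups were taken from the sample titles. The submitters' processing notes name STAR, DESeq2, SAMtools 1.9, bedtools 2.27.1 and the build mm10. The authors deposited means of size-factor-normalized counts (a signal per group and over 24 libraries), log2 fold changes with SE, score values (Wald) and p-values from DESeq2. The authors also deposited JuncBASE percent inclusion per library and rMATS output with a difference as another quantity and p-values; 6 per-sample columns of rMATS were not used. Whole reads were recovered from means under 70, for 8312 of 10868 genes from the means alone and otherwise with the deposited fold change to choose between combinations, and for higher members by a joint search that also had to match the fold change. A fit of all genes on counts, foreseen if counts per library existed, was not made because reads were recovered for low genes only. Left-out-library fold changes came from a negative binomial model with the dispersion that gives the deposited SE, and a call there meant an absolute Wald score of at least 2.89. JuncBASE events were tested with limma 3.58.1 (R 4.3.3) on log2 odds with a pseudocount of 1 percentage point. Scripts were tested on simulated data. Named list genes were those past an adjusted p of 0.05, at most 4 a list (some are not reported here), and further ligands were chosen after their values were seen. Gene positions came from GENCODE M21 (GRCm38).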

Additional observations from a re-analysis of the deposited data

How the results depend on the processing

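Of the 4 members called, 2 (Cish and Socs3) had an adjusted p under 0.01. With the trend of fold change in GC content and length removed 2 stayed called, Cish (adjusted p = 0.00629) and Socs2 (0.0340), while Socs3 (0.0692, log2 fold change 1.79) and Socs1 (0.232, log2 fold change 1.42) did not, and Socs4 turned from -0.33 to 0.051. Over all genes that removal left 100 of 12071 called higher (0.828%). With each library left out in turn, an alternative chosen after seeing the data, 2 to 3 members were called. It was 2 without the deepest smoke library (Socs1 higher, Socs4 lower) and 2 without the second deepest room air library, where the Socs2 score was 2.76. The log2 fold changes ranged from 0.78 to 4.59 for Cish, from 1.50 to 2.02 for Socs1, from -0.58 to 4.04 for Socs2 and from 1.47 to 2.36 for Socs3. Of 110 called genes with recovered reads, 41 (37.3%) kept the score without the deepest smoke library. JuncBASE calls were 23 with only events seen in all 6 libraries and ranged from 0 to 1064 with a replicate left out, the highest without cigarette smoke replicate 3. They were 0 with a replicate block. In their deviations from the group means, same-numbered libraries correlated at 0.0177, -0.0404 and -0.0888. Such correlations cannot show whether the libraries were paired in handling, and the labels state no pairing. At a false discovery rate under 0.01 rMATS called 302 introns. Alternatives for JuncBASE differences in members were not run, since 0 events lay in them. The values of Cish, Socs1 and Socs2 rest on 1 to 12 reads in each library other than the deepest smoke library, which limits their precision to the intervals given.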

Other observations

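The 20 genes with over 90% of their summed normalized count after smoke in the deepest smoke library, among those with a smoke mean from 10 to 70, chosen by that share after the values were seen, held genes of several kinds beside Cish and Socs2. Ccl8, a monocyte chemokine, had 96.5% of its summed normalized count there at a smoke mean of 14.5, and F13a1, the coagulation factor XIII subunit gene typical of tissue macrophages, had 90.6% at a mean of 21.5. Ms4a4a, a surface gene of the macrophage lineage, had 94.2%, and Gpr34, a lysophospholipid receptor gene, had 92.4%. The metabolic genes Ak4, an adenylate kinase, and Bcat1, which transaminates branched-chain amino acids, had 100% and 98.6%. Genes for transcription factors were among them as well, Irx2 and Zfhx4, both with 100%. The list was formed from 1 library and carries no test.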
